A study of Mus musculus with 26 samples.

Results

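The genes described here carry glucose to pyruvate, and decide whether pyruvate leaves the mouse cell as lactate or enters the mitochondrion. They came from a list of 33 symbols, chosen by gene function: the enzymes of glycolysis with their isoforms, the glucose transporter Slc2a1, the PFKFB regulators, lactate dehydrogenase, the lactate carriers, pyruvate dehydrogenase with its kinases, and the transcription factor Hif1a. Of the 33, 29 were among the 15648 different genes of the RNA-seq table, 28 of them under the listed symbol and Pkm under its older name Pkm2. Tpi1, Eno3, Pdk3 and Pdk4 were not analysed here.

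The study compared chromosome contacts of promoters, by Promoter Capture Hi-C, and RNA levels between pluripotent states of the mouse. RNA-seq covered 3 samples of wild-type embryonic stem cells (ESCs), 3 of ESCs that lack Nanog (genotype NANOG knockout, called Nanog-/- below) and 4 of epiblast-derived stem cells (EpiSCs). Promoter Capture Hi-C was sequenced in 5, 5 and 2 lanes in the same order, from 2 biological replicates per cell type. It joins DNA ends that lie close together in fixed nuclei and pulls down the joined pieces that hold a promoter with RNA baits.

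The wild-type ESCs were E14Tg2a (129P2/OlaHsd), and the Nanog-/- ESCs were RCNβH-B(t), derived from E14Tg2a and used at passages 20 to 30. Both were grown on gelatin in DMEM with 15% FBS, 1 mM sodium pyruvate and 1000 U/ml LIF, and the expansion of the Nanog-/- cells also had 25 µg/ml hygromycin. The EpiSCs came from a 129S2 embryo and were grown on fibronectin in N2B27 with 20 ng/ml Activin A and 12 ng/ml bFGF. The strain field of the labels reads C57BL/6 for these samples, which differs from the growth protocol. Cell type, strain and medium, pyruvate and serum included, changed together between ESCs and EpiSCs, and cannot be told apart in that comparison. The Nanog-/- cells are a derived line, so the loss of Nanog and the history of the line cannot be told apart either.

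Glycolysis first spends ATP to trap and split glucose, through hexokinase, phosphofructokinase and aldolase, and then regains ATP at phosphoglycerate kinase and pyruvate kinase. Lactate dehydrogenase turns pyruvate into lactate and renews NAD, while pyruvate dehydrogenase turns it into acetyl-CoA inside the mitochondrion and is held back by the PDK kinases. Naive ESCs are known to use both glycolysis and respiration, and primed EpiSCs to lean on glycolysis.

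RNA levels were read as RPKM, a count of reads per kilobase of gene scaled to the mapped reads, of which the table holds the median of each group. Only these medians were used, so no value below has a replicate error or a test, and a gene counts as called where it changed by 2-fold or more. EpiSC values were divided by 1.89, the median EpiSC to wild-type ratio over 9077 genes at 1 RPKM or more in both groups, while Nanog-/- values, whose median ratio was 1.05, were left as deposited. Differences are log2 ratios after adding 1 RPKM, for genes at 1 RPKM or more in at least 1 of the groups compared. Without the scaling, the median difference of all genes in EpiSCs was 0.86 rather than 0.01, and gene differences move up by about as much. In bulk samples, fewer cells of a type and less RNA per cell cannot be told apart.

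Nanog itself, the gene removed, had 418 RPKM in wild-type ESCs and 22.3 RPKM in Nanog-/- ESCs, a log2 difference of -4.17, so the knockout column is low but not at 0. In EpiSCs Nanog had 191 RPKM after scaling, a difference of -1.12 that was -0.21 without it. All 8 of the 8 naive markers in the table were lower in EpiSCs, their summed level being 1283 RPKM in wild-type ESCs, 667 in Nanog-/- ESCs and 219 in EpiSCs after scaling, with Nanog the most abundant in wild-type ESCs and none at 0. Of the 8, Nanog, Klf4 and Dppa3 were lower in Nanog-/- ESCs, and Nanog itself made up most of the fall of the sum there. Of 10 primed markers, 5 were higher in EpiSCs, with T at 236 RPKM after scaling against 3.37 in wild-type ESCs, and Lefty2 was lower. The primed markers summed to 498, 581 and 875 RPKM, and 5 of them were lower in Nanog-/- ESCs, where Cer1 was at 0. The general pluripotency markers summed to 3401, 3626 and 1642 RPKM in the same order, with 3 of 6 lower in EpiSCs (Sox2, Utf1 and Tdgf1), none called in Nanog-/- ESCs and none at 0. Without scaling, Utf1 and Tdgf1 were within 2-fold at -0.76 and -0.49, and 7 primed markers were higher in EpiSCs. The naive and primed markers thus set the EpiSC column apart from the wild-type column. The knockout column carries only a clone name and was matched by elimination, and its low Nanog goes with that match.

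Markers of other cells also differed, some of them shared between lists, since Foxa2 marks both primed cells and endoderm. Of 7 primitive endoderm markers, 6 were higher in Nanog-/- ESCs, where they summed to 118 RPKM against 16.5 in wild-type ESCs and none was at 0. Lama1 was their most abundant gene there at 49.0 RPKM, and in EpiSCs 5 were higher and Lama1 lower, with a sum of 72.9 RPKM after scaling. Of 5 fibroblast markers, 4 were higher in EpiSCs, with a summed 213 RPKM after scaling against 45.5 in wild-type ESCs, and Col1a1 led at 72.6 RPKM. None of these 5 was at 0 in any group, and in Nanog-/- ESCs Postn was higher and the sum 56.6 RPKM. Of 5 trophoblast markers 1 was higher in each comparison (sums of 5.76, 10.3 and 17.1 RPKM in wild-type ESCs, Nanog-/- ESCs and scaled EpiSCs, with Eomes or Hand1 leading). Of 3 neural markers 2 were lower in each (89.4, 40.9 and 11.2 RPKM, with Tubb3 leading). Of 3 mesoderm markers Mixl1 was higher in EpiSCs (1.25, 2.15 and 3.96 RPKM). None of these was at 0. The part of such cells in the glycolysis values was not tested.

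The pathway was among the most abundant RNA of all 3 cell types. The 29 genes had a median level of 81.4 RPKM in wild-type ESCs, where the median of all genes was 3.93 RPKM, and 8 of them ranked in the top 100 genes, as did 8 in Nanog-/- ESCs and 5 in EpiSCs. As deposited, they took 2.94% of the summed RPKM of all genes in wild-type ESCs, 2.74% in Nanog-/- ESCs and 1.98% in EpiSCs. Without Gapdh, Pgk1, Pgam1 and Eno1, whose reads are hard to place as described below, these shares were 1.99%, 1.81% and 1.75%, and 4 genes were in the top 100 of each. The pyruvate kinase gene Pkm was the most abundant of them, the number 6 gene of wild-type ESCs at 4274 RPKM and number 3 in the other cell types. At the low end, Hk3 had 0.146, 0.499 and 0.156 RPKM in wild-type ESCs, Nanog-/- ESCs and scaled EpiSCs.

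In EpiSCs, 27 of the 29 genes passed the filter on low levels, all but Hk3 and Pklr. None was called higher, where 15.5% of all 10532 genes were, and 10 were called lower, where 14.4% of all genes were. The other 17 changed by less than 2-fold. The median difference of the 27 was -0.67, against 0.01 for all genes. In Nanog-/- ESCs 28 genes passed, all but Hk3. None was called higher (2.59% of all 10175 genes) and 3 were called lower (2.08% of all genes), with 25 within 2-fold and a median of -0.12 against 0.07. Both comparisons used the same wild-type medians, so they are not independent of each other.

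The count of lower genes in EpiSCs held at 10 or 7 under other scalings, but without any scaling it was 6 of 27, where 8.27% of all genes were lower, and 6 other genes were called higher, where 43.0% of all genes were. Those called lower either way were Pfkp, Gapdh, Pgk1, Pgam1, Eno1 and Ldhb. Hk1, Gpi1, Pgam2 and Pdk1 kept a negative difference without scaling, between -0.17 and -0.56, and were then within 2-fold. The genes called higher without scaling were Pfkm, Pfkfb3, Pfkfb4, Slc16a1, Slc16a3 and Hif1a, which lay after scaling between 0.26 and 0.94. At equal RPKM sums 4 genes were called higher, Pfkfb3, Pfkfb4, Slc16a3 and Hif1a, where 25.5% of all genes were.

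**Figure D1:**
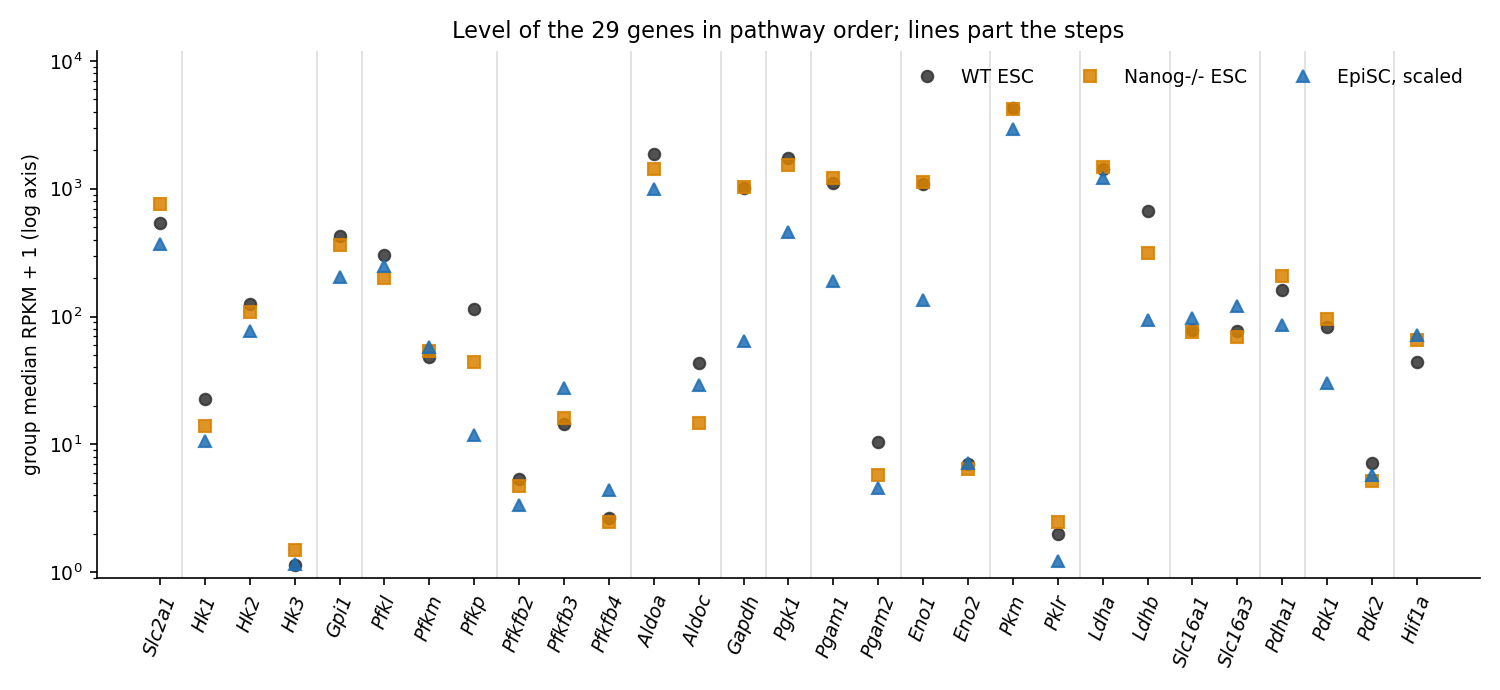
Group median RPKM plus 1 (log axis) of the 29 genes in pathway order, for wild-type ESCs (circles), Nanog-/- ESCs (squares) and EpiSCs after scaling (triangles), with grey lines between steps. Most circles and squares lie close together, while the triangles of Pfkp, Gapdh, Pgk1, Pgam1, Eno1 and Ldhb lie far below.

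Several glycolysis transcripts are hard to place, because the mouse genome carries many processed copies of them. Each transcript was therefore read in stretches of 50 bases, starting at every 5th base, and the share of stretches found letter for letter elsewhere in the genome was counted. This copied share was 94.2% for Pgam1, 93.0% for Pgk1, 85.5% for Gapdh and 72.0% for Eno1. It was 40.5% for Pkm, 33.1% for Ldhb, 28.8% for Ldha, 24.7% for Gpi1 and 15.0% for Aldoa, and at most 1.26% for the other 20 genes. At 100 bases, the longer of the read lengths the labels name, it was still 84.9% for Gapdh, 89.9% for Pgk1, 89.6% for Pgam1 and 58.8% for Eno1, but 1.45% for Ldha and 9.13% for Ldhb. The labels do not say which sample was read at which length, nor does any source used here say how reads with several matches were counted.

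The copied share went along with the EpiSC difference over all genes. The median EpiSC difference was 0.11 for 6781 genes without a copied stretch, -0.30 for 428 genes above 10% and up to 25%, -0.80 above 25% and up to 50%, -1.48 above 50% and up to 75%, and -2.85 for 130 genes above 75%, of which 87.7% were called lower. Processed pseudogenes, which are such copies themselves, had a median of -4.17 (111 genes). In the Nanog-/- comparison the same groups of genes had medians from 0.08 to -0.01, and the pseudogenes -0.08. So the low EpiSC values of strongly copied genes are uncertain, and the part of read placement in them was not tested.

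Split in this way, the glycolysis genes fell into unlike groups. Among the 20 with at most 10% copied, 18 passed the filter in EpiSCs, 4 were called lower (Hk1, Pfkp, Pgam2 and Pdk1) and the median was -0.41, where all genes with as little copying had 0.08 and 11.2% called lower. Among the 9 with more, 6 were called lower and the median was -1.92, where all such genes had -0.74 and 41.9% called lower. In Nanog-/- ESCs the median of the less copied genes was -0.15 with 2 called lower, where all such genes had 0.08 and 2.11% called lower. That of the more copied was -0.03 with 1 called lower, where all such genes had 0.03 and 1.75%. This split was chosen after the values were seen.

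**Figure D2:**
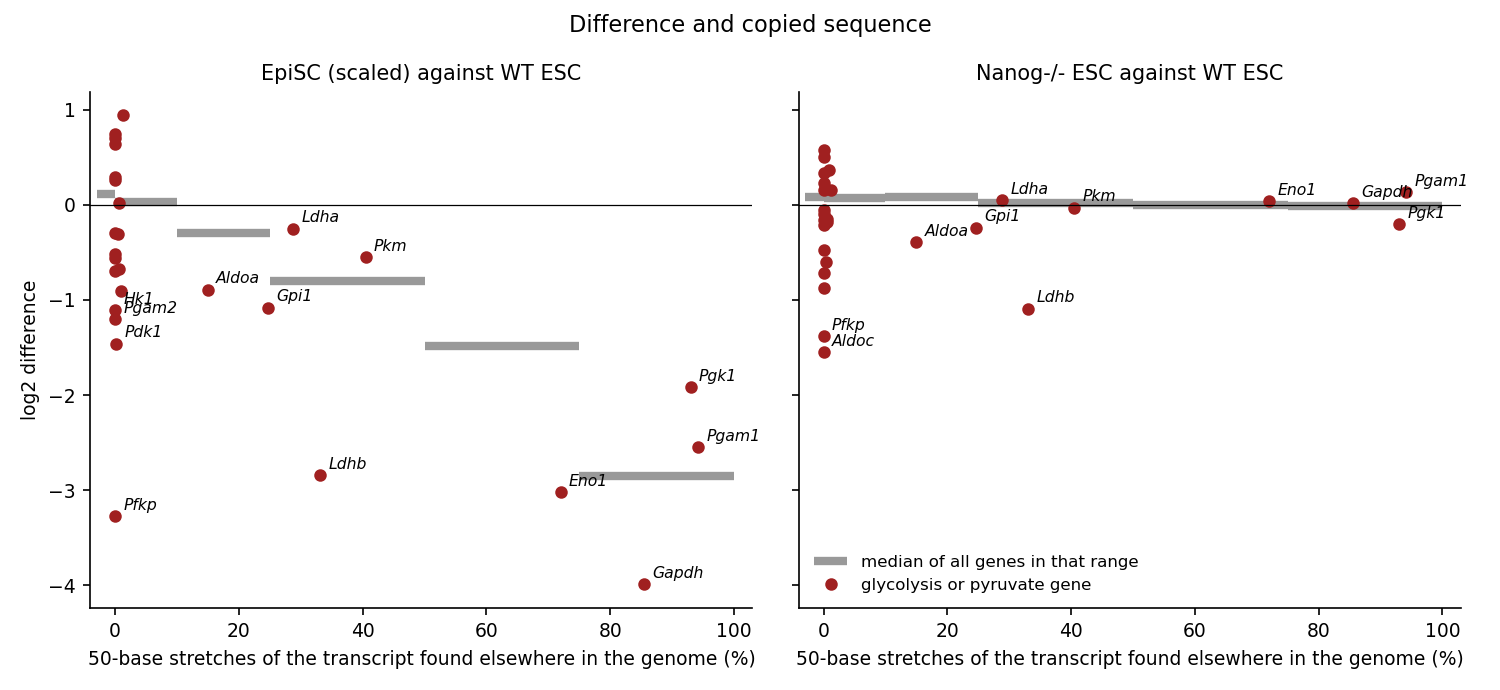
Log2 difference from wild-type ESCs of each glycolysis or pyruvate gene that passed the filter (dots), for EpiSCs after scaling (left) and Nanog-/- ESCs (right), against the percent of its 50-base transcript stretches found elsewhere in the genome; grey bars are the medians of all genes in each range. The grey bars fall from 0.11 to -2.85 on the left and stay near 0 on the right; Pfkp lies low in both panels with no copied stretch.

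Slc2a1 encodes GLUT1, a transporter that lets glucose in. Its level was 535 RPKM in wild-type ESCs, 756 in Nanog-/- ESCs and 372 in EpiSCs after scaling. The difference was 0.50 in Nanog-/- ESCs. In EpiSCs it was -0.52 after scaling but 0.39 without, so its direction there depends on the scaling. Slc2a3, another glucose transporter gene, belongs to the list of other glycolysis genes. It had 469, 437 and 339 RPKM in wild-type ESCs, Nanog-/- ESCs and scaled EpiSCs. Its differences were -0.10 in Nanog-/- ESCs and -0.47 in EpiSCs, the latter 0.45 without scaling. Hexokinase then traps glucose as its phosphate. Hk2, the isoform of muscle and of growing cells, had 125, 108 and 76.6 RPKM in wild-type ESCs, Nanog-/- ESCs and scaled EpiSCs, and its EpiSC difference of -0.70 also turned to 0.21 without scaling. Hk1, the widely expressed isoform, had 21.8, 12.9 and 9.62 RPKM and was called lower in EpiSCs at -1.11. Within the step, Hk2 took 85.0% of the summed RPKM in wild-type ESCs, 88.9% in Nanog-/- ESCs and 88.7% in EpiSCs, so the main isoform was the same in each. Such shares within a cell type do not depend on the scaling.

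The promoter of Slc2a1 is shown because this gene had the highest contact score beyond 20 kb among the 29, described with the contacts. It is the RefSeq window from 250 bases before to 50 after the start, at chr4:119108495-119108794 (GRCm38.p6, plus strand). Capitals mark ACGTG, a form of the core letters that hypoxia factors bind, searched on both strands. The form GCGTG was neither searched nor marked, so a window without capitals can still hold a core. This window holds 1 match.
Slc2a1: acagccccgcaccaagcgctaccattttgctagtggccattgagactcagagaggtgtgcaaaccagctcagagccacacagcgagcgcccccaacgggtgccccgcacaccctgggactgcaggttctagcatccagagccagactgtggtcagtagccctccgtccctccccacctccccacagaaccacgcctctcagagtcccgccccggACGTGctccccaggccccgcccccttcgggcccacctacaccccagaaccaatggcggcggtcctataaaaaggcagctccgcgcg

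Gpi1 converts glucose phosphate to fructose phosphate. It had 429 RPKM in wild-type ESCs, 364 in Nanog-/- ESCs and 202 in EpiSCs after scaling, a called EpiSC difference of -1.08 that was -0.17 without scaling. Phosphofructokinase, the committed step, changed its mix of isoforms. Pfkp, the platelet-type subunit, had 114 RPKM in wild-type ESCs, 43.3 in Nanog-/- ESCs and 10.9 in EpiSCs after scaling. It was called lower in both, at -1.38 in Nanog-/- ESCs and -3.27 in EpiSCs (-2.42 without scaling), and none of its stretches was copied. Pfkl, the liver-type subunit, had 305, 200 and 246 RPKM in the same order, and its EpiSC difference was -0.31 after scaling but 0.61 without and 0.14 at equal RPKM sums. Pfkm, the muscle-type subunit, had 47.3, 53.1 and 56.7 RPKM and stayed within 2-fold in both comparisons after scaling.

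As shares of the phosphofructokinase step, Pfkp made up 24.5% of the RPKM in wild-type ESCs, 14.6% in Nanog-/- ESCs and 3.48% in EpiSCs. Pfkl rose from 65.4% to 67.5% and 78.5%, and Pfkm from 10.2% to 17.9% and 18.1%. The ratio of Pfkl to Pfkp was 2.67 in wild-type ESCs, 4.63 in Nanog-/- ESCs and 22.6 in EpiSCs. The step was carried by Pfkl and Pfkp together in wild-type ESCs and almost without Pfkp in EpiSCs, at the level of RNA.

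The promoters of this isoform pair are given next to each other because their genes moved apart. The Pfkl window lies at chr10:78009758-78010057 and the Pfkp window at chr13:6648722-6649021, both on the minus strand and written in the direction of the gene. Neither holds ACGTG, so neither has capitals, though both hold GCGTG, the form that was not searched. The GC box letters GGGCGG occur 3 times in Pfkl and 4 times in Pfkp counting both strands.
Pfkl: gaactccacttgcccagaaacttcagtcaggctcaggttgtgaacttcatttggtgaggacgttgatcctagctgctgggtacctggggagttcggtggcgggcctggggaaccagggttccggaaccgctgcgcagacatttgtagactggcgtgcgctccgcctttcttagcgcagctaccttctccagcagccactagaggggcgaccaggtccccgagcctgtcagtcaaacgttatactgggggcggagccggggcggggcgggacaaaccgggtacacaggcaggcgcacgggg
Pfkp: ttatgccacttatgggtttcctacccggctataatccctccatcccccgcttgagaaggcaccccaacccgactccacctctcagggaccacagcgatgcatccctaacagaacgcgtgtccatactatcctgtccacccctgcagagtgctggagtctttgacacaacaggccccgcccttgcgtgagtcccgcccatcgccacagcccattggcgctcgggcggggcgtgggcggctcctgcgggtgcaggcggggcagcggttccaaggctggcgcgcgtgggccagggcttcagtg

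The PFKFB enzymes make and remove a sugar bisphosphate that is the strongest activator of phosphofructokinase. Pfkfb3, whose kinase activity prevails, had 13.5 RPKM in wild-type ESCs, 15.2 in Nanog-/- ESCs and 26.8 in EpiSCs after scaling. Its EpiSC difference was 0.94, just inside 2-fold, and 1.83 without scaling. Pfkfb4 had 1.65, 1.48 and 3.44 RPKM, with an EpiSC difference of 0.74 that a pseudocount of 0.1 RPKM takes past 2-fold, and Pfkfb2 had 4.34, 3.72 and 2.36 RPKM, with -0.67 that became 0.03 without scaling. Pfkfb3 rose as a share of the 3 regulators from 69.3% in wild-type ESCs to 74.5% in Nanog-/- ESCs and 82.2% in EpiSCs, and Pfkfb2 fell from 22.3% to 18.2% and 7.24%. These shares leave out Pfkfb1, which belongs to the list of other glycolysis genes and had 8.37, 6.70 and 7.43 RPKM in wild-type ESCs, Nanog-/- ESCs and scaled EpiSCs.

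Aldolase splits the sugar. Aldoa, the muscle and housekeeping form, had 1852 RPKM in wild-type ESCs, 1415 in Nanog-/- ESCs and 1002 in EpiSCs after scaling, and its EpiSC difference of -0.89 was 0.03 without scaling. Aldoc, the brain form, had 42.2, 13.8 and 28.4 RPKM. It was called lower in Nanog-/- ESCs at -1.55, the largest fall of the list in that comparison, while its EpiSC difference of -0.56 became 0.34 without scaling. Aldoa made up between 97.2% and 99.0% of the step in each cell type, so the fall of Aldoc hardly changed the aldolase total.

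The Aldoc window, at chr11:78322823-78323122 on the plus strand, is shown as that of the gene that fell most in Nanog-/- ESCs. It holds 1 ACGTG, written here in capitals as its reverse complement, and 1 GC box.
Aldoc: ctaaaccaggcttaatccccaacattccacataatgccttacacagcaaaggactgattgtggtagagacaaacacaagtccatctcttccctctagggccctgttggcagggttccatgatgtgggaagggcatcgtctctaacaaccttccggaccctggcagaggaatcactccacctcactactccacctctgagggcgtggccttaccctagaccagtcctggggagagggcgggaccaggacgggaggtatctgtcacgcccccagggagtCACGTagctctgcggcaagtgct

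In the lower, energy-yielding arm, 4 abundant genes were low in EpiSCs, and all 4 are strongly copied. Gapdh, which oxidises glyceraldehyde phosphate, had 1016 RPKM in wild-type ESCs, 1033 in Nanog-/- ESCs and 63.1 in EpiSCs after scaling, a difference of -3.99 (-3.09 without scaling). Pgk1, the first ATP-yielding step, had 1749, 1527 and 462 RPKM, with an EpiSC difference of -1.92. Pgam1, which moves the phosphate group, had 1112, 1217 and 188 RPKM, with -2.55. Eno1, which makes phosphoenolpyruvate, had 1096, 1130 and 135 RPKM, with -3.02. In Nanog-/- ESCs these genes lay between -0.20 and 0.13 with no call, and Gapdh and Eno1, at 0.02 and 0.04, turned to -0.04 and -0.02 when those cells were scaled over genes at 5 RPKM or more. Genes with over 75% copied stretches had a median of -2.85 in EpiSCs, so Gapdh lay below that median, and Pgk1 and Pgam1 above it. Eno1 lay below the median of its own range, which was -1.48.

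Their less abundant isoforms carry few or no copied stretches. Pgam2, the muscle mutase, had 9.49, 4.72 and 3.57 RPKM in wild-type ESCs, Nanog-/- ESCs and scaled EpiSCs and was called lower in EpiSCs at -1.20, which was -0.44 without scaling. Eno2, the neuronal enolase, had 6.08, 5.39 and 6.18 RPKM and an EpiSC difference of 0.02. Eno1 made up 99.4%, 99.5% and 95.6% of the enolase step and Pgam1 99.2%, 99.6% and 98.1% of the mutase step, shares that carry the uncertainty of the copied genes.

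Pkm encodes the enzyme that makes pyruvate and the second ATP. It had 4274, 4186 and 2922 RPKM in wild-type ESCs, Nanog-/- ESCs and scaled EpiSCs, with an EpiSC difference of -0.55 that was 0.37 without scaling. With 40.5% copied stretches it lies in a range where the median of all genes was -0.80. The table does not part the M1 and M2 splice forms of Pkm. Pklr, the liver and red cell gene, had 0.978 RPKM in wild-type ESCs and 1.49 in Nanog-/- ESCs, and took at most 0.0356% of the step.

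At the fork after pyruvate, lactate dehydrogenase also changed its make-up. Ldhb, the heart-type subunit that favours lactate to pyruvate, had 669 RPKM in wild-type ESCs, 315 in Nanog-/- ESCs and 92.6 in EpiSCs after scaling. It was called lower in both, at -1.09 and -2.84 (-1.93 without scaling). With 33.1% of its stretches copied it lies in a range where the median of all genes was -0.80 in EpiSCs and 0.02 in Nanog-/- ESCs, the range of Pkm. Ldha, the muscle-type subunit that favours lactate production, had 1426, 1479 and 1203 RPKM, with an EpiSC difference of -0.25 that was 0.67 without scaling and 0.21 at equal RPKM sums. Ldha thus rose as a share of the step from 68.1% to 82.5% in Nanog-/- ESCs and 92.9% in EpiSCs, and Ldhb fell from 31.9% to 17.5% and 7.15%. The ratio of Ldha to Ldhb was 2.13, 4.70 and 13.0. The copied shares of Ldha and Ldhb were 28.8% and 33.1% at 50 bases, and 1.45% and 9.13% at 100 bases, and their part in these ratios was not tested.

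The Ldha and Ldhb windows are shown for the same reason as those of phosphofructokinase. Ldha lies at chr7:46845554-46845853 on the plus strand and Ldhb at chr6:142507908-142508207 on the minus strand. The Ldha window holds 5 matches of ACGTG in capitals, of which 4 belong to its 2 E-boxes, since the E-box letters CACGTG hold the core once on each strand. The Ldhb window holds neither ACGTG nor CACGTG. Both windows also hold GCGTG, which was not searched, so they do not part by presence and absence of the core.
Ldha: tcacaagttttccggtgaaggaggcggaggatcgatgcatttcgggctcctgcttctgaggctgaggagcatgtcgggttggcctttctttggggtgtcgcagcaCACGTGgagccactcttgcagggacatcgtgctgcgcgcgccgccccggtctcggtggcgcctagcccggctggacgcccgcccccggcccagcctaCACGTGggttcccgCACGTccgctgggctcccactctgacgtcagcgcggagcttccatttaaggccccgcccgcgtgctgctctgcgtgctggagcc
Ldhb: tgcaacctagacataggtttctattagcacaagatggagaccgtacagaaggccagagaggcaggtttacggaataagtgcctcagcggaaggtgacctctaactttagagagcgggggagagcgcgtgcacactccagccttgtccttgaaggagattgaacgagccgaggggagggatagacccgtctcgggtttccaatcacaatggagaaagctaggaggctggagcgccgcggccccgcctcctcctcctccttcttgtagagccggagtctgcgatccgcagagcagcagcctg

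Some genes have several RefSeq windows, and 1 was taken for each of the 29 genes, the first on its bait where there was one, while the background counts every window of every gene. Of the 29, 15 held ACGTG (51.7%), where 19.6% of 32851 RefSeq windows of all genes did, and 7 held CACGTG (24.1%, against 7.15%). Counting every window of the 29 genes, as in the background, 22 of 46 held ACGTG (47.8%) and 7 held CACGTG (15.2%). The GC content of the windows had a median of 62.0%, against 52.7% for all. A match describes letters, and no factor binding was measured in these windows here. GGGCGG was in 55.2% of the 29 windows and 45.7% of the 46, against 35.7%, and TATAAA in 6.90% and 6.52%, against 13.6%.

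**Figure D3:**
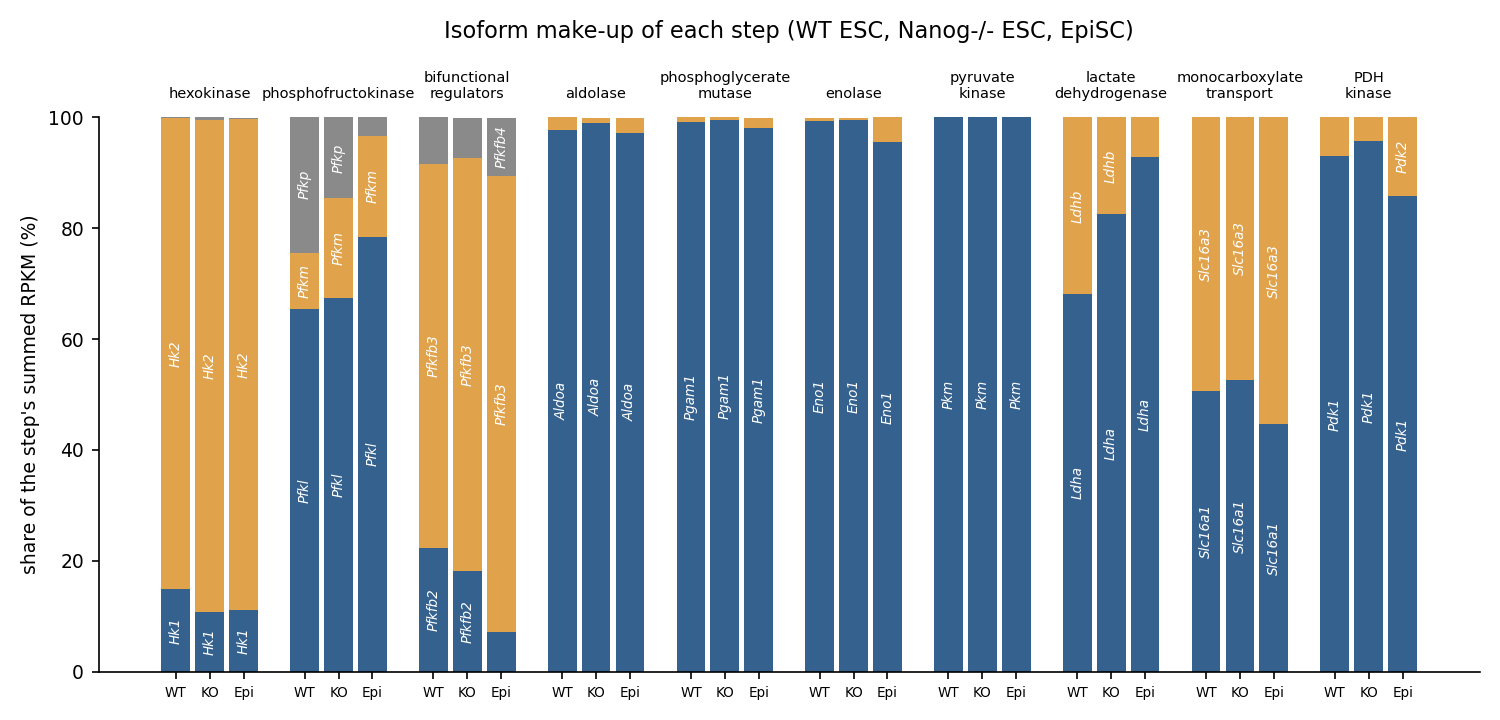
Stacked bars of the percent of each step's summed RPKM taken by each isoform, in wild-type ESCs (WT), Nanog-/- ESCs (KO) and EpiSCs (Epi), for the steps with more than 1 gene in the table. Pfkp shrinks from 24.5% to 3.48% and Ldhb from 31.9% to 7.15% between WT and Epi, with KO between them.

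Lactate leaves the cell through the monocarboxylate carriers. Slc16a1 (MCT1) had 77.9, 75.3 and 95.7 RPKM in wild-type ESCs, Nanog-/- ESCs and scaled EpiSCs, and Slc16a3 (MCT4), the carrier of strongly glycolytic cells, had 75.9, 67.7 and 119 RPKM. Their EpiSC differences were 0.29 and 0.64, or 1.20 and 1.55 without scaling, which is past 2-fold. Slc16a3 took 49.4% of the pair's RPKM in wild-type ESCs, 47.3% in Nanog-/- ESCs and 55.3% in EpiSCs.

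Pdha1, the catalytic subunit of pyruvate dehydrogenase, had 160 RPKM in wild-type ESCs, 207 in Nanog-/- ESCs and 84.5 in EpiSCs after scaling, differences of 0.37 and -0.91 (-0.01 without scaling). Pdk1, a kinase that switches the complex off, had 81.4, 95.5 and 29.0 RPKM and was called lower in EpiSCs at -1.46, or -0.56 without scaling. Pdk2, the widespread kinase, had 6.16, 4.17 and 4.82 RPKM, with an EpiSC difference of -0.30 that became 0.50 without scaling. Pdk1 took 93.0% of the kinase RPKM in wild-type ESCs, 95.8% in Nanog-/- ESCs and 85.8% in EpiSCs. The ratio of Pdha1 to Pdk1 was 1.97, 2.17 and 2.91, while in EpiSCs Pdha1 changed by less than 2-fold and Pdk1 did too without scaling. The kinase shares leave out Pdk3 and Pdk4.

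Hif1a, the oxygen-regulated factor that drives many of these genes, is controlled largely as a protein. Its RNA had 43.2 RPKM in wild-type ESCs, 65.1 in Nanog-/- ESCs and 71.0 in EpiSCs after scaling. The differences were 0.58 in Nanog-/- ESCs and 0.70 in EpiSCs, both within 2-fold, and 1.61 in EpiSCs without scaling.

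Related gene lists give the surroundings. Over all genes 15.5% were called higher and 14.4% lower in EpiSCs, and 2.59% and 2.08% in Nanog-/- ESCs, shares to be held beside the small counts of these lists. Of 16 other glycolysis genes in the table, 11 passed the filter in EpiSCs and 2 were called lower in EpiSCs, the testis form Ldhc at -2.61 and the bisphosphatase Tigar at -1.24, and none higher. In Nanog-/- ESCs Ldhc was called lower too, at -2.22, from 5.32 RPKM to 0.359. The hexokinase-like Hkdc1 was called higher there at 1.05, from 0.0836 to 1.24 RPKM. It passed the filter only through its Nanog-/- value, so this call rests on low levels and is uncertain. Of 14 genes from pyruvate to acetyl-CoA, Acss1, which makes acetyl-CoA from acetate, was called lower in EpiSCs at -1.90, and none was called in Nanog-/- ESCs. Of 8 pentose phosphate genes, Rpia was called lower in EpiSCs at -2.10 and none in Nanog-/- ESCs. Without scaling, Tigar was within 2-fold at -0.37, and 4 of the other glycolysis genes, 3 of the acetyl-CoA genes and 2 of the pentose phosphate genes were called higher in EpiSCs, where 43.0% of all genes were.

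Gluconeogenesis runs the pathway backwards. Of 5 such genes in the table, Pck2, the mitochondrial kinase that makes phosphoenolpyruvate, went in opposite directions: 26.4 RPKM in wild-type ESCs, 12.0 in Nanog-/- ESCs and 93.6 in EpiSCs after scaling, called higher in EpiSCs at 1.79 and lower in Nanog-/- ESCs at -1.07. Fbp2 was called lower in EpiSCs at -1.06 and higher in Nanog-/- ESCs at 1.48, from 1.34 to 5.53 RPKM. Fbp2 was thus called on low levels, and was within 2-fold in EpiSCs without scaling, at -0.93. Whether the comparisons differ from each other was not tested.

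Among 16 hypoxia pathway genes, Hif3a was called higher in EpiSCs at 1.23, and Epas1 (-1.80) and Bnip3 (-1.74) lower, while Ndrg1 was called lower in Nanog-/- ESCs at -1.36. Among 11 regulators of glycolysis, Zbtb10 was called higher in EpiSCs at 1.16, and Esrrb (-7.23) and Mycn (-1.82) lower. Myc was called higher in Nanog-/- ESCs, at 72.2 RPKM against 24.2. Without scaling, Bnip3 and Mycn were within 2-fold at -0.84 and -0.92, while 8 hypoxia genes and 2 regulators were called higher in EpiSCs, where 43.0% of all genes were. Bnip3 has 62.0% copied stretches, a range in which 61.9% of all genes were called lower in EpiSCs, so its value is uncertain too. These lists had medians of 0.24 and -0.25 in EpiSCs, and of -0.44 and 0.10 in Nanog-/- ESCs, and the glycolysis genes that passed the filter -0.67 and -0.12.

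Promoter contacts were read from 1 list per cell type, in which the replicates are combined, so they too have no replicate error. Each contact joins a baited restriction fragment to another fragment, with the number of read pairs and the CHiCAGO score, a measure of reads above what the distance alone gives. The lists hold scores of 5 or more, and a contact that appears from either end was taken 1 time. Each of the 29 genes had a bait that the lists give under its name alone, although a bait can hold another start or miss the promoter, as given for 4 genes with their contacts. Intervals for shares are Wilson 95% intervals and cover counting error only.

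The 29 baits had 218 contacts in wild-type ESCs, 196 in EpiSCs and 184 in Nanog-/- ESCs, where all 19022 baits had 100492, 87369 and 74931. In the same order, 27, 25 and 22 baits had at least 1 contact. These are 93.1%, 86.2% and 75.9% of the 29, near the 89.7%, 85.0% and 74.7% of all baits. Median distance was 111 kb, 108 kb and 65.1 kb, against 139 kb, 141 kb and 74.1 kb over all contacts, so the shorter reach in Nanog-/- ESCs was shared by the whole list. None of these contacts joined different chromosomes, which was rare over all baits too, with 786, 388 and 346 such contacts in wild-type ESCs, EpiSCs and Nanog-/- ESCs. Other baited promoters were the partner in 37.2% of the wild-type contacts (31.0 to 43.7), 30.1% in EpiSCs (24.1 to 36.9) and 32.6% in Nanog-/- ESCs (26.3 to 39.7), against 23.1%, 18.4% and 22.0% over all contacts.

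Of the 218 wild-type contacts, 107 were also listed in EpiSCs, 49.1% (42.5 to 55.7), where 39.6% of all wild-type contacts were. From the EpiSC side this is 54.6% of 196 (47.6 to 61.4), where the share over all EpiSC contacts was 45.5%. With Nanog-/- ESCs the wild-type list shared 104, which is 47.7% (41.2 to 54.3) of the wild-type contacts against 41.8% over all, and 56.5% (49.3 to 63.5) of the Nanog-/- contacts against 56.0%. In all 3 lists there were 71, 32.6% of the wild-type contacts (26.7 to 39.0) against 24.9%. Contacts of the same bait are not independent counts, and which of the 2 wild-type shares lay further above its background changed with the score threshold. Counted over any list there were 366 different contacts, whose partners overlapped an exon in 217 cases, an intron alone in 45, and no protein-coding gene in 104.

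**Figure D4:**
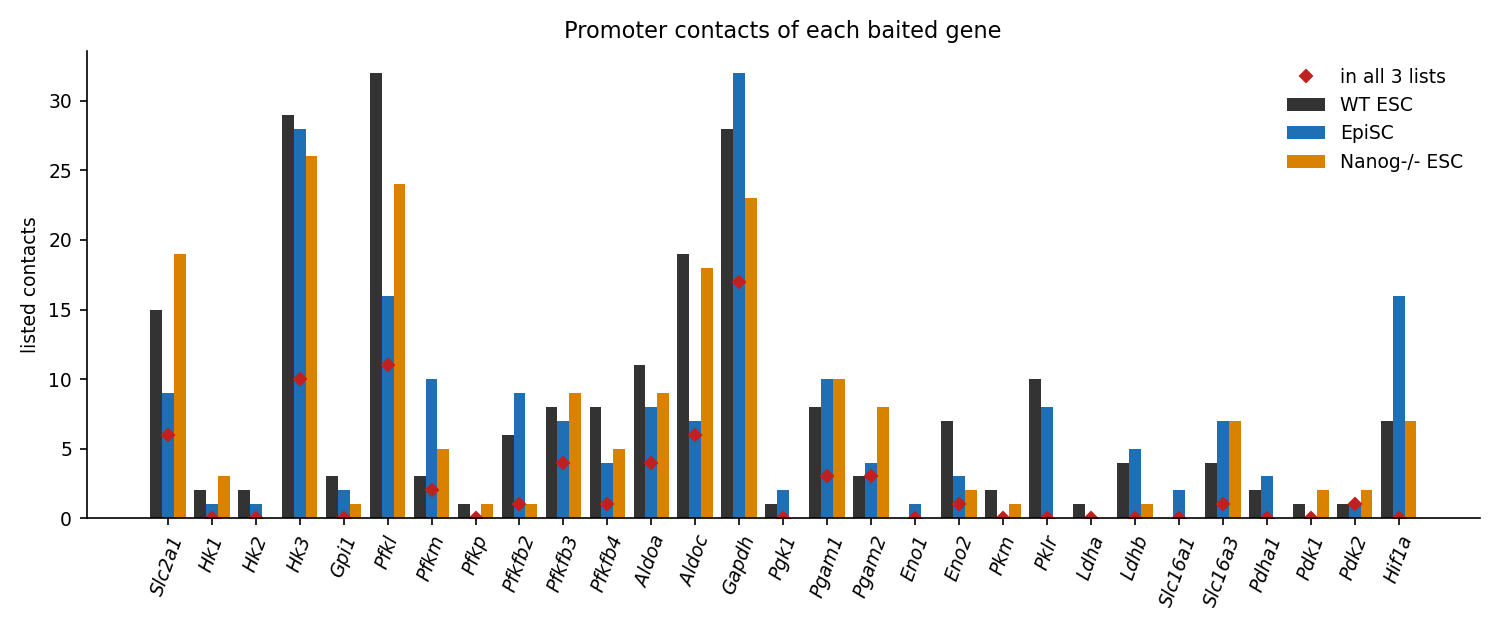
Bars of the number of listed promoter contacts per gene in wild-type ESCs, EpiSCs and Nanog-/- ESCs; diamonds mark the number found in all 3 lists. Pfkl, Hk3 and Gapdh have over 20 contacts in at least 1 list, while Pfkp, Eno1, Pkm, Ldha, Pgk1 and Pdk1 have at most 2 in any list.

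Contacts were spread very unevenly, and genes with many contacts included both the abundant Gapdh and weakly expressed genes. Hk3, nearly silent in RNA, had 29, 28 and 26 contacts in wild-type ESCs, EpiSCs and Nanog-/- ESCs, 10 of them in all 3 lists. Its highest score in each list fell on a fragment over exons of Tspan17, 224 kb away, at chr13:54795307-54799410 (scores 21.34, 15.74 and 13.06). Pkm, the most abundant gene, had 2, 0 and 1 contacts, and Ldha, Pfkp, Eno1 and Pgk1 had at most 2 in any list. Pfkp had 1 partner, the bait of Gm10029 at 13.6 kb, listed in wild-type and Nanog-/- ESCs and not in EpiSCs. A bait with few listed contacts can have others under the score threshold, so a low count is not an absence.

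Taking the baits with 5 or more wild-type contacts, 13 of the 29 genes qualified. In EpiSCs 4 of the 13 had at most 1 contact for every 2 in wild-type ESCs (Pfkl, Pfkfb4, Aldoc and Eno2), where 34.1% of 8081 such baits did, and 1 had at least 2-fold more (Hif1a), where 4.03% did. In Nanog-/- ESCs 3 of the 13 fell as far (Pfkfb2, Eno2 and Pklr), where 33.2% of baits did, and none rose by 2-fold, where 1.44% did. These counts lie near the background. Choosing baits by their wild-type count favours falls over rises, for these genes and for the background alike. Genes with fewer wild-type contacts could not be counted. Among them were Pfkm with 3, 10 and 5 contacts, Pgam2 with 3, 4 and 8, and Pkm with 2, 0 and 1, in wild-type ESCs, EpiSCs and Nanog-/- ESCs. Pfkl had 32, 16 and 24 contacts, Aldoc 19, 7 and 18, and Hif1a 7, 16 and 7, in wild-type ESCs, EpiSCs and Nanog-/- ESCs.

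The strongest distal contact of Slc2a1 lay 104 kb upstream in sequence without a protein-coding gene, at chr4:119004277-119006554 (GRCm38). It joined 52 read pairs with a score of 29.93 in wild-type ESCs, 48 with 30.7 in EpiSCs and 38 with 32.79 in Nanog-/- ESCs. The adjoining fragments at 106 kb and 108 kb were also in all 3 lists, with wild-type scores of 16.07 and 21.7, EpiSC scores of 8.26 and 15.38, and Nanog-/- scores of 9.91 and 11.47. Further fragments at 91.0 kb and 72.5 kb recurred too, so the Slc2a1 promoter touched the same upstream stretch in each cell type. Within the gene, the fragment at 18.5 kb (chr4:119123039-119133360) was listed in all 3 as well. In total Slc2a1 had 15, 9 and 19 contacts in the same order, of which 6 were in all 3 lists.

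Pfkl had 11 contacts in all 3 lists, all between 140 kb and 195 kb upstream, in intergenic sequence and over D10Jhu81e, Pwp2 and Trappc10. The fragment with the D10Jhu81e bait, chr10:78167096-78170911, scored 24.26 in wild-type ESCs, 15.06 in EpiSCs and 23.49 in Nanog-/- ESCs. Its neighbour at 154 kb scored 25.11, 6.57 and 20.65, from 34, 11 and 21 read pairs. The cluster was therefore in place in all lists, with lower scores in EpiSCs in these examples, while Pfkl RNA changed by less than 2-fold in both comparisons. Pfkfb3 likewise held a distant gene-free cluster, from 155 kb to 166 kb downstream, whose outermost fragment chr2:11328633-11331801 scored 17.53, 15.32 and 19.62.

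**Figure D5:**
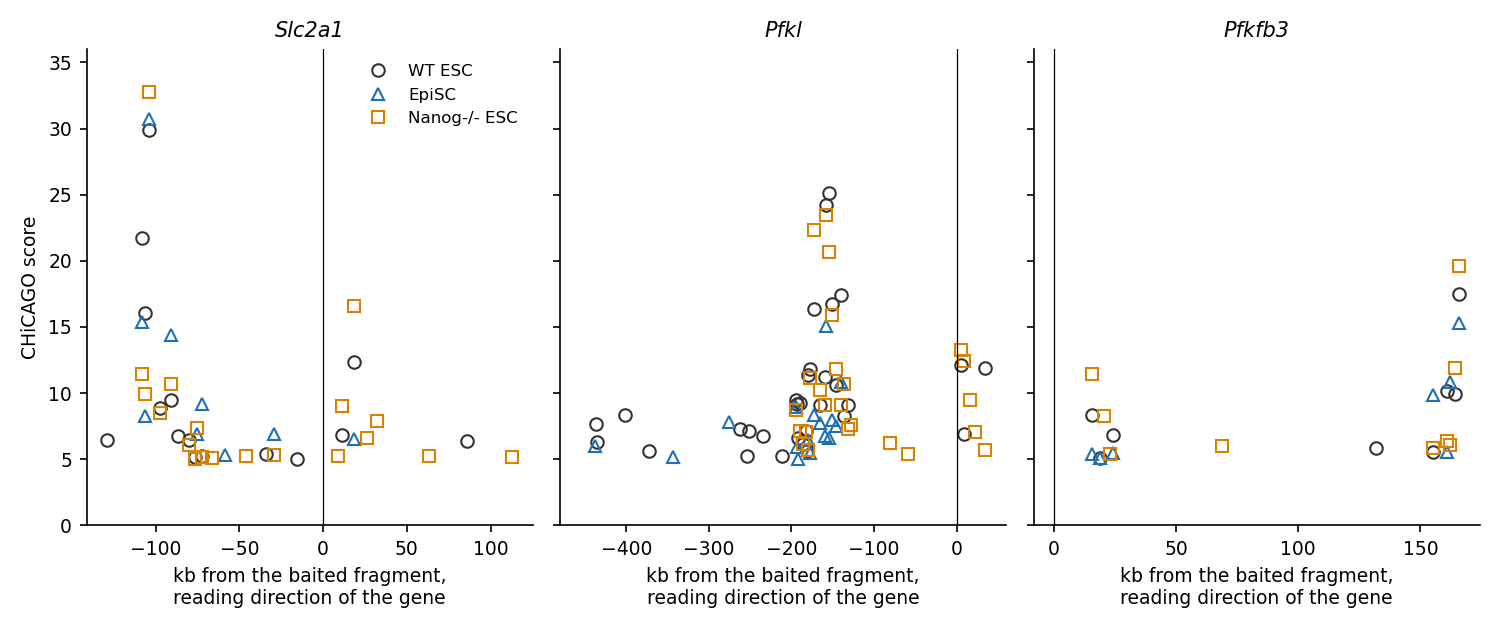
CHiCAGO score of each listed contact of Slc2a1, Pfkl and Pfkfb3 against the distance of the partner fragment from the bait in kb, negative upstream of the gene, with a symbol per cell type; 1 wild-type Pfkl contact at 1752 kb is outside the plotted range. The highest Slc2a1 point of each cell type lies at the same fragment 104 kb upstream.

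Gapdh had 28, 32 and 23 contacts in wild-type ESCs, EpiSCs and Nanog-/- ESCs, with 17 in all 3 lists, the most of any of the genes. The 17 lay within 71.0 kb, over the neighbouring genes Chd4, Nop2, Iffo1, Ncapd2, Mrpl51, Vamp1, Tapbpl and Cd27. Its highest score in wild-type ESCs was at the Ncapd2 bait 23.8 kb away (18.96), which was in that list alone. The Iffo1 bait at 21.1 kb scored 15.54, 27.45 and 21.88, the highest of them in EpiSCs, where the Gapdh RNA value was lowest and is uncertain. Aldoc had its strongest contact at the Spag5 bait 14.6 kb away, with 178 read pairs and a score of 30.7 in wild-type ESCs, 102 and 23.77 in EpiSCs, and 95 and 33.85 in Nanog-/- ESCs. Of its 19 wild-type contacts, 13 were also listed in Nanog-/- ESCs, where its RNA was called lower. Hk1 and Hk2 had at most 3 contacts each in any list, with their highest scores at 7.28 for Hk1 (108 kb, inside its own gene, Nanog-/- ESCs) and 6.31 for Hk2 (89.0 kb, EpiSCs).

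Among further promoter pairs in all 3 lists, Aldoa touched the baits of Mvp (216 kb, scores 23.13, 13.41 and 21.55 in wild-type ESCs, EpiSCs and Nanog-/- ESCs), Maz, Ppp4c and Fam57b. Pfkfb4 touched Trex1 at 69.2 kb, Pfkm touched Asb8 at 74.9 kb, Eno2 touched Lrrc23 at 12.1 kb and Slc16a3 touched Ccdc57 at 11.4 kb. Pgam1 touched Exosc1 at 15.1 kb, with scores of 12.55, 8.67 and 14.77, and Pdk2 touched the Gm11513 bait at 22.6 kb, with 11.01, 15.93 and 8.95. Pgam2 touched Dbnl at 14.4 kb (5.45, 5.35 and 8.63) and had an intergenic fragment at 11.8 kb as its highest score in each list (8.12, 6.31 and 10.93). The Pfkm bait also holds the start of Senp1, so its contacts cannot be given to either gene alone.

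Hif1a had no contact in all 3 lists, and its 16 EpiSC contacts lay mostly over Prkch, up to 347 kb away. The strongest, at chr12:73724150-73735353, scored 9.09 in EpiSCs and 6.29 in wild-type ESCs. Ldhb had 4, 5 and 1 contacts, among them the Cmas bait at 248 kb, with scores of 8.99 in wild-type ESCs and 5.29 in EpiSCs. Pklr had 10, 8 and 0, all with baited partners, of which Thbs3 scored 16.87 in wild-type ESCs and Scamp3 9.88 in EpiSCs. Slc16a1 had none in wild-type or Nanog-/- ESCs and 2 in EpiSCs, an intergenic fragment at 77.4 kb with a score of 10.22 and a nearer one at 69.4 kb. Gpi1, Pdha1, Pdk1 and Pdk2 had at most 3 each in any list. The baits that carry the names of Ldha, Hif1a and Pfkfb2 do not overlap the RefSeq windows of these genes, so their counts belong to a fragment beside the promoter or at another start.

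For the remaining genes many of the highest scores stood in 1 or 2 lists only. Pdha1 touched Map3k15 at 148 kb, with 6.82 in wild-type ESCs and 13.1 in EpiSCs, and Pgk1 touched Cox7b at 168 kb (9.44, wild-type ESCs) and Magt1 at 175 kb (6.49, EpiSCs). Pfkfb2 had its highest wild-type score over Mapkapk2 at 325 kb (7.19), and a fragment at 10.3 kb over its own gene and Yod1 was in all 3 lists (5.56, 7.97 and 6.41 in wild-type ESCs, EpiSCs and Nanog-/- ESCs). Gpi1 had its highest score at 164 kb in EpiSCs (7.87), and Eno1 its only contact at 459 kb, also in EpiSCs (6.73). The named contacts of Pgk1, Gpi1 and Eno1 rest on at most 10 read pairs each, so they are uncertain. Pkm touched Parp6 at 39.1 kb in wild-type ESCs (7.13) and Celf6 at 77.7 kb in Nanog-/- ESCs (5.28), Ldha touched Hps5 at 45.3 kb in wild-type ESCs (5.4), and Pdk1 had a fragment at 126 kb in wild-type and Nanog-/- ESCs (5.09 and 5.89). The Celf6, Hps5 and Pdk1 contacts also rest on at most 10 read pairs each. The same holds for Map3k15 and Mapkapk2 in wild-type ESCs, so all of these are uncertain too.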

How the data were processed

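RNA-seq, Promoter Capture Hi-C and ChIP-seq samples are in the series, and the ChIP-seq samples were not used. The RPKM values are group medians made by the authors, whose notes name Trim Galore, TopHat and DESeq2. The table also holds the authors' log2 fold changes and significance calls, which were not used. The contact counts are read pairs that the authors combined over replicates after HiCUP (Bowtie 1.1.0). The score of each contact is the CHiCAGO score of the authors, deposited at 5 or more. The depth of each library was not used here. The Nanog-/- column carries only a clone name and was matched by elimination. Older gene names were matched through RefSeq synonyms, and promoters come from RefSeq.

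A pseudocount of 1 RPKM and a filter of 1 RPKM in at least 1 of the groups compared were used. The rule for names was all 33 listed genes; of each other list the genes at 2-fold or more and 1 RPKM or more, at most the 5 with the greatest change in each direction; and of the contacts each gene's highest score per list, those in all 3 lists, and those between promoters of listed genes, the last of which are not reported here. Not all contacts that fit this rule are named singly; the others, and those with lower scores, are given as counts. Slc2a3 and Pfkfb1 are named outside this rule. Other contacts named (Slc2a1, Pfkl, Pfkfb3, Gapdh) and the printed promoters were chosen after their values were seen. The members and lists were chosen with earlier results of these data known. Python 3.11.15, numpy 2.4.6, pandas 2.3.3, scipy 1.17.1 and matplotlib 3.10.9 were used, and the steps were tested on simulated data. Other scalings, pseudocounts, filters, fold and score thresholds were tried.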

Additional observations from a re-analysis of the deposited data

How the results depend on the processing

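Of 85 alternatives, 64 left an isoform share unchanged, a count within 1.5 times, a contact share within its Wilson interval, or a median within its binomial interval over the genes, which describes the spread among genes and is no replicate error. Some of the 64 could not have changed a result. Taking contacts within a chromosome only, or baits with no other gene name, left out none of the contacts of these genes. Without scaling, 6 genes were higher in EpiSCs and 6 lower, and the median turned from -0.67 to 0.21. That scaling shifts all genes alike: 43.0% of them were then higher and 8.27% lower, and their median moved from 0.01 to 0.86, so the genes stayed below it. Higher genes in EpiSCs numbered 1 when scaled over genes at 5 RPKM or more, 4 at equal RPKM sums, 1 with a pseudocount of 0.1 RPKM and 4 at 1.5-fold. In Nanog-/- ESCs 6 were lower at 1.5-fold, none was higher under any alternative, and the median ranged from -0.10 to -0.17. Without isoforms under 1 RPKM, Hk1 took 11.2% in EpiSCs and Hk2 85.1%, 89.3% and 88.8% in wild-type ESCs, Nanog-/- ESCs and EpiSCs. At a score of 7 or more there were 100, 90 and 87 contacts in wild-type ESCs, EpiSCs and Nanog-/- ESCs, with 34 in all 3 lists, 47.0% of the wild-type contacts also in EpiSCs (38.4% over all baits) and 58.0% in Nanog-/- ESCs (43.1%). With partners within 10 kb taken as the same, 131 were in all 3 lists, 74.3% of the wild-type contacts were also in EpiSCs (67.7% over all baits) and 67.4% in Nanog-/- ESCs (68.1%). Chosen after seeing the data, the genes with at most 10% copied had 4 lower in EpiSCs. Leaving out Pkm, also chosen then, could change no count of called genes, since Pkm was not called in either comparison. The cause of these shifts was not tested. No paired analysis was possible because only group medians and combined contact lists were at hand. Spread between replicates, library depth and read placement are therefore unknown. Low RNA values, contacts with few reads and the EpiSC values of strongly copied genes are uncertain.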
